A study of Mus musculus with 9 samples.

Results

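The E2 ubiquitin-conjugating enzymes were described here as the mouse genes whose symbol is Ube2 followed by a letter, with 1 probe set per gene, the one with the highest mean signal over the 9 arrays. A probe set is a group of short DNA probes that together read the RNA of a gene, and those annotated with several genes or with none were left out. The rule took 33 genes with 81 probe sets, out of 18193 genes and the 45037 probe sets left after the controls among the 45101 of the array were set aside. The symbol does not make each of them an E2 enzyme. Ube2v1 and Ube2v2 resemble E2s but lack the active cysteine, Ube2cbp encodes a ubiquitin ligase that binds an E2, and Ube2d-ps is named as a pseudogene. Ube2l3 was left out because its 4 probe sets are annotated with 4 further symbols, and Ube2m was not analysed here.

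Ubiquitin reaches a protein in a relay. An E1 enzyme activates ubiquitin, an E2 takes it over on a cysteine of its active site, and an E3 ligase brings the loaded E2 to the target. The E2 often sets what kind of chain is built. Chains linked through Lys48 of ubiquitin send proteins to the proteasome, and chains linked through Lys63 serve mostly in signalling and DNA repair. In wasting muscle this pathway breaks down myofibrillar proteins, with FBXO32 and MuRF1 (gene Trim63) as the best known E3 ligases.

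The arrays came from the tibialis anterior of 15-week-old male C57BL/6J mice, 3 in each of 3 groups, with 1 array per mouse. The control group received saline on an AIN93-based diet. The DEX group received 5 mg/kg of dexamethasone, a synthetic glucocorticoid that causes muscle atrophy, by daily intraperitoneal injection for 1 week on the same diet. The DEX + TE group received the same injections on that diet with 2% turmeric extract (TE), which began 5 days before the injections, although by the sample labels the turmeric came after DEX. No group received TE without DEX, and the mice chosen for the arrays had body and muscle weights close to the average.

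On the array scale the whole table is set so that a signal of 500 is the trimmed mean of each array, and 50 was taken as the floor of measurable signal. Of the 33 genes, 28 had a signal of 50 or more on all 9 arrays. Ube2c, Ube2l6 and Ube2ql1 reached 50 in the mean of only 1 or 2 groups and entered the tests through those groups. Ube2d2b, with signals of 1.21 to 56.4, and Ube2u, with signals of 3.92 to 49.7, did not reach it in any group mean and were not tested. The tests therefore cover 31 of the 33 genes, and their p-values were adjusted over all 29269 probe sets that passed the floor. A gene was called where the limma adjusted p was under 0.05 and the log2 fold change was at least 0.6 in either direction.

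Between 58.5 and 65.2% of all probe sets reached 50 on each array. The log2 ratio of 3′ to 5′ signal of the actin control probe sets was 0.25 to 0.33 in control, 0.10 to 0.43 in DEX and 0.38 to 0.54 in DEX + TE, so the DEX + TE arrays lay above all control arrays in it. That of Gapdh overlapped, at -0.38 to -0.32 in control, -0.38 to -0.30 in DEX and -0.35 to -0.30 in DEX + TE. All 5 muscle fiber markers were present, with a summed signal of 284091 to 405664 in control, 224148 to 284235 in DEX and 277731 to 305945 in DEX + TE. The 5 fibroblast markers summed to 27609 to 41176 in control, 16786 to 19721 in DEX and 24829 to 26864 in DEX + TE, and Col1a1 and Col1a2 were called lower in DEX. Of 4 adipocyte markers 3 were tested, and Adipoq read 268 to 441 in control, 721 to 905 in DEX and 1165 to 2050 in DEX + TE, where it was called against control (log2 2.19, limma adjusted p = 0.0261), while Cidec was at a log2 value of 1.73 there (limma adjusted p = 0.112). Fabp4, the third, went the other way. It read 20162 to 24232 in control, 15167 to 18872 in DEX and 18473 to 20006 in DEX + TE. The 5 leukocyte markers with a probe set summed to 654 to 1039 in control, 611 to 773 in DEX and 1044 to 1119 in DEX + TE. The part of these shifts in the values below was not tested, and in whole muscle fewer cells of a type and less RNA per cell cannot be told apart.

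The first comparison asked how DEX injection moved the E2 genes. No E2 gene was called in DEX against control by limma, 0 of 31, where 0.502% of all probe sets tested were called, and Rank Product, the test of the study's methods, also called 0. The largest differences on the higher side were those of Ube2h and Ube2j1, at 1.45-fold each, followed by Ube2g2 at 1.27-fold. On the lower side, among genes well above the floor, Ube2e2 stood at 0.752 of the control level and Ube2t at 0.826. The remaining members mostly lay close to their control level, with 19 of 31 within 0.2 of 0 on the log2 scale.

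Ube2h encodes the E2 of the CTLH ligase complex, which in yeast, as the GID complex, degrades enzymes of sugar synthesis. Its signal was 2021, 2222 and 2107 on the control arrays. It was 2922, 3103 and 3213 on the DEX arrays, and 2928, 2610 and 2834 on the DEX + TE arrays. All 6 arrays of DEX-injected mice lay above all 3 control arrays. The log2 fold change of DEX against control was 0.54 (95% interval 0.32 to 0.76, limma adjusted p = 0.0688), which missed both parts of the threshold. The probe set that stands for Ube2h carries the suffix x, which marks probes that also match other transcripts, and the 3 further Ube2h probe sets gave log2 values of 0.16, -0.05 and 0.47.

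Ube2j1 encodes an E2 anchored in the membrane of the endoplasmic reticulum (ER), where it works in ER-associated degradation, the removal of misfolded secretory proteins. Its signal was 775, 809 and 696 in control. It was 1231, 1078 and 997 in DEX, and 1260, 1148 and 1075 in DEX + TE. The control arrays again lay below all the others. The log2 fold change of DEX against control was 0.53 (95% interval 0.25 to 0.82, limma adjusted p = 0.120). The second probe set of Ube2j1 gave 0.15, with overlapping groups.

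The promoters of Ube2h and Ube2j1 are shown because these genes stood highest above control in DEX among the members. RefSeq (GRCm38.p6) gave 36 promoters, each of 250 bases before and 50 after a start site, for 27 of the 33 genes, and they were compared with 32841 promoters of all genes. Capitals mark the glucocorticoid receptor hexamer AGAACA and the FoxO motif TGTTTAC, each read on both strands.
Ube2h, chr6:30304490-30304789, minus strand: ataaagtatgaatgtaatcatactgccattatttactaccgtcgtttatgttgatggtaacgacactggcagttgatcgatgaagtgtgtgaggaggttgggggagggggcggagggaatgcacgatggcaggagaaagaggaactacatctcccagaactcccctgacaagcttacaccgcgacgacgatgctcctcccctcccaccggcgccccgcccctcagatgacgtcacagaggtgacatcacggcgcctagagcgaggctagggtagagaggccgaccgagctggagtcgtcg
Ube2h, chr6:30243754-30244053, minus strand: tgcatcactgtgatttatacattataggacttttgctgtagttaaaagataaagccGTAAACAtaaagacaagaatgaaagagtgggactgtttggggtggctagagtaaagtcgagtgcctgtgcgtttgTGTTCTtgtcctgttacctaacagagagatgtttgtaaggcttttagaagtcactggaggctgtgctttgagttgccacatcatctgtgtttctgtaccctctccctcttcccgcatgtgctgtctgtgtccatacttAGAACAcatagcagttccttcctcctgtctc
Ube2j1, chr4:33031130-33031429, plus strand: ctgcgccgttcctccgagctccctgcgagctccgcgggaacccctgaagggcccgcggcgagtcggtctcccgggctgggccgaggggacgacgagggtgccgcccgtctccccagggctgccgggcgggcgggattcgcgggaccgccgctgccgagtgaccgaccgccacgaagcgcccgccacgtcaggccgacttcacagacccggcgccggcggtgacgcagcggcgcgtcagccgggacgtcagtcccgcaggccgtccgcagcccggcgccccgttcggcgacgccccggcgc
The promoters of Ube2j1 and of the upstream start of Ube2h hold neither motif. The other Ube2h promoter holds 2 hexamers, which begin at -119 and 19 from the start site, and 1 FoxO motif at -194. Across the E2 genes the hexamer was found in 3 of 36 promoters, of Ube2d3, Ube2h and Ube2s, against 19.0% of all promoters. The FoxO motif was found in 1 of 36 against 3.65%. The full glucocorticoid receptor site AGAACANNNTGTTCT was in 0 of 36, against 0.00913% of all promoters. The E2F motif, TTTCGCGC or TTTGGCGC, was in 0 of 36 against 0.813%. The E2 promoters were rich in G and C, with a median of 68.8% and 29.5 CG dinucleotides, against 52.7% and 7 for all promoters. These matches describe the letters in the windows and say nothing of binding in this muscle.

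**Figure D1:**
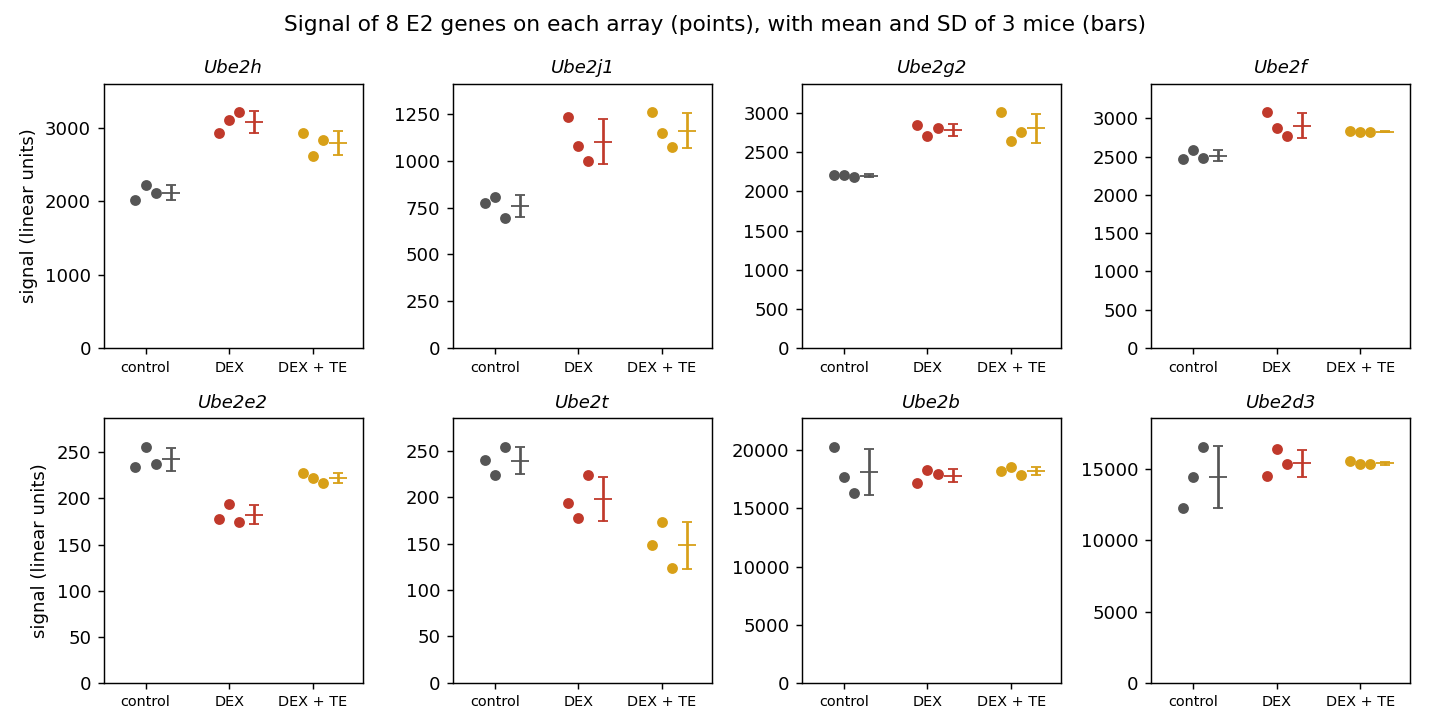
Signal of 8 E2 genes in linear units (vertical axes from 0) on each array of the control, DEX and DEX + TE groups. Points are arrays and bars are the mean and SD of 3 mice, and in Ube2h, Ube2j1, Ube2g2 and Ube2f all 6 arrays of DEX-injected mice lie above the 3 control arrays, while in Ube2b and Ube2d3 the groups overlap.

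Among E2s of Lys48 chains and ER-associated degradation, 6 of 6 were tested, with a median log2 fold change of 0.15 in DEX against control. Ube2g2, a partner of ligases of the ER membrane, had the narrowest interval of the 6. Its signal was 2212, 2211 and 2181 in control, 2854, 2703 and 2811 in DEX, and 3015, 2649 and 2756 in DEX + TE, without overlap between control and the others. Its log2 fold change was 0.34 (95% interval 0.13 to 0.55, limma adjusted p = 0.161), and its second probe set, with 721, 598 and 462 in control and 829, 908 and 846 in DEX, gave 0.56 (limma adjusted p = 0.207). Both probe sets of Ube2g2 thus lay higher on every DEX array than on any control array.

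Ube2j2, the second membrane-anchored E2 of the ER, read 2970, 2624 and 2738 in control, 3571, 3123 and 3029 in DEX and 3014, 3083 and 2971 in DEX + TE. Its control arrays lay just below the others, and the difference of 0.22 in DEX had an interval of -0.02 to 0.46. The second probe set of Ube2j2, with signals around the floor, gave -0.28. Ube2g1, which extends Lys48 chains for cullin ligases, read 10845, 9463 and 9306 in control, 9116, 9023 and 8936 in DEX and 8719, 9127 and 9019 in DEX + TE. Here control lay above the rest, mainly through the first control array, and the log2 fold change of -0.13 had an interval of -0.35 to 0.10. The second probe set of Ube2g1 gave 0.09, with overlapping groups. Ube2k, which builds Lys48 chains without help from a ligase, and Ube2r2, a close relative of the Cdc34 E2 of SCF ligases, had log2 values of 0.08 and -0.13, with overlapping groups. Cdc34 itself, which carries another kind of symbol, was at 0.02.

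Lys63 chains are built by Ube2n together with Ube2v1 or Ube2v2. Ube2n read 1309 ± 88.1 (SD, n = 3) in control, 1238 ± 130 in DEX and 1406 ± 168 in DEX + TE. The log2 fold changes of Ube2n, Ube2v1 and Ube2v2 in DEX against control were -0.08, 0.11 and 0.09. All 3 intervals held 0, and the widest, that of Ube2n, ran from -0.39 to 0.22.

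The E2s of chain initiation and broad use, 15 of 17 tested, include those most studied in muscle wasting. Ube2b, a homologue of yeast Rad6 that works with ligases of the N-end rule, read 20307, 17734 and 16360 in control, 17163, 18289 and 17985 in DEX, and 18179, 18566 and 17866 in DEX + TE. The 3 groups overlapped, and the log2 fold change of -0.02 had an interval of -0.27 to 0.23. The other 3 probe sets of Ube2b lay between -0.28 and 0.02. Its close relative Ube2a was at 4157, 3700 and 3648 in control and 4310, 4243 and 4195 in DEX, without overlap, for a log2 fold change of 0.15 (interval -0.07 to 0.37).

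The Ube2d enzymes hand the first ubiquitin to the targets of many ligases, MuRF1 among them. Ube2d1 read 6300, 6442 and 5069 in control, 6048, 7318 and 7051 in DEX and 7422, 7027 and 6968 in DEX + TE, and only the DEX + TE arrays lay above all control arrays. Its log2 fold change was 0.20 in DEX against control (interval -0.10 to 0.50). Ube2d2a and Ube2d3 gave -0.02 and 0.11, and the 7 tested probe sets of Ube2d3 spanned -0.03 to 0.24. Ube2e1 was at 9062 ± 426 (SD, n = 3) in control and 9237 ± 252 in DEX. Ube2o, an unusually large E2 that also acts as a ligase, was at 548 ± 90.5 (SD, n = 3) and 538 ± 18.2.

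Ube2e2 went the other way from Ube2h in this group. It read 234, 256 and 237 in control, 178, 194 and 175 in DEX and 227, 222 and 216 in DEX + TE. The DEX arrays lay below all others, and the DEX + TE arrays lay between, below every control array. The log2 fold change was -0.41 in DEX against control (95% interval -0.63 to -0.20, limma adjusted p = 0.115). Its relatives Ube2e1 and Ube2e3 gave 0.03 and -0.07, with overlapping groups. Ube2w, which attaches ubiquitin to the amino terminus of proteins, was at -0.20 (interval -0.50 to 0.10). Ube2q1, Ube2q2 and Ube2z, which takes ubiquitin from the E1 Uba6, lay between 0.06 and 0.12. Ube2ql1 read 71.6, 22.4 and 24.0 in control, 5.31, 25.3 and 44.3 in DEX and 59.2, 73.4 and 72.0 in DEX + TE, so that only the DEX + TE group was above the floor on every array. Its fitted fold changes rest on signals below the floor.

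E2s can also carry proteins that resemble ubiquitin. Ube2f, which loads NEDD8 onto the cullin Cul5 with the ligase subunit Rnf7, read 2468, 2591 and 2479 in control, 3082, 2869 and 2763 in DEX and 2835, 2820 and 2822 in DEX + TE. Control again lay below both other groups, and the log2 fold change of 0.21 in DEX had an interval of 0.00 to 0.41 (limma adjusted p = 0.337). The 6 tested probe sets of Ube2f did not go one way, with values of -0.25 to 0.21. Rnf7 itself was at -0.26. Ube2l6, the E2 of the interferon-induced modifier ISG15, read 51.0, 47.8 and 80.2 in control, 37.5, 41.6 and 43.2 in DEX and 57.7, 46.9 and 56.4 in DEX + TE, and all of its DEX arrays were below the floor. The 4 interferon response genes tested summed to 654 to 850 in control, 365 to 859 in DEX and 633 to 1010 in DEX + TE, and their part in the Ube2l6 values was not tested.

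The cell cycle and DNA repair E2s were few and mostly low. Ube2t, the E2 of the Fanconi anemia pathway of DNA crosslink repair, read 240, 225 and 255 in control, 194, 178 and 224 in DEX and 148, 174 and 123 in DEX + TE. The 3 groups did not overlap and lay in that order, but the lowest control array (224.7) was only just above the highest DEX array (224.3). The DEX step was -0.28 (95% interval -0.64 to 0.08, limma adjusted p = 0.463). Ube2s, which extends chains for the anaphase-promoting complex, was at 4392 ± 306 (SD, n = 3), 4599 ± 74.4 and 4354 ± 129. Ube2c, which starts those chains, read 31.7, 59.0 and 81.5 in control, 60.8, 11.6 and 27.9 in DEX and 53.7, 8.36 and 53.7 in DEX + TE, near the floor in all groups. Of 6 markers of proliferating cells 2 were tested, the defining genes Mki67 and Cdk1 reached 50 on no array, and the list summed to 425 to 494 in control, 274 to 451 in DEX and 399 to 466 in DEX + TE. Ube2cbp and Ube2d-ps had log2 fold changes of 0.19 and 0.03, with overlapping groups.

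The E2 genes, each with its probe set of highest mean signal, were read against shares over all probe sets. Ube2f, Ube2g2, Ube2h and Ube2j1 were higher in DEX at an unadjusted limma p under 0.05. They are 4 of 31 (12.9%), where 6.1% of all probe sets were higher. Ube2e2 and Ube2l6 were lower at that p, 2 of 31 (6.45%) where 8.33% were. The groups did not overlap for 10 of 31 members (32.3%), where 21.2% of probe sets did not. Ube2l6 is in both of these counts, but it entered the tests only through the control and DEX + TE groups, so the filter fixed its direction and nothing is read from it. The median log2 fold change was 0.06 over the members and -0.03 over the 13662 genes tested. It was 3.6e-05 over the members without DEX replicate 2 and 0.0078 with the mean over all probe sets of a gene. The median size without sign was 0.13 against 0.21. The 95% interval lay wholly within 0.6 of 0 for 23 of 31 members, against 34.8% of probe sets. The median standard error was 0.11 over the members and 0.19 over all genes tested. The smallest two-sided p that an exact permutation of 3 against 3 arrays can give is 0.1, so that test could not pass 0.05 for any of these genes.

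**Figure D2:**
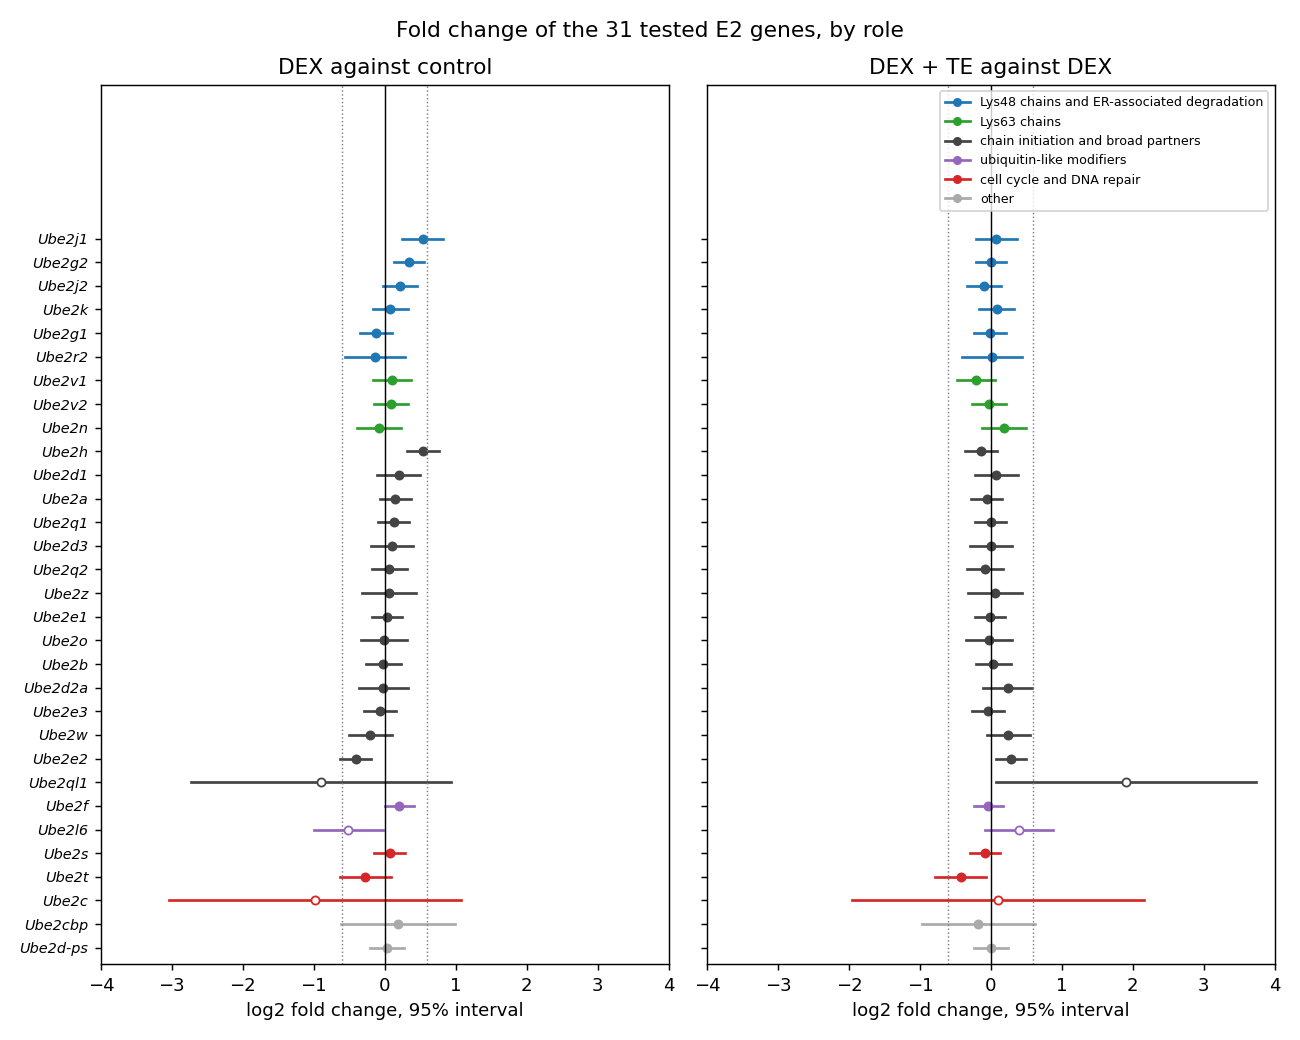
Log2 fold change (horizontal axis) of the 31 tested E2 genes with its 95% interval, for DEX against control on the left and DEX + TE against DEX on the right, coloured by role, with open points for Ube2c, Ube2l6 and Ube2ql1, whose mean was below the floor of 50 in at least 1 group. Dotted lines stand at 0.6 on either side of 0, and 23 intervals on the left and 26 on the right lie wholly between them, while Ube2c and Ube2ql1 have the widest.

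The second comparison asked whether the TE diet moved the E2 genes in DEX-injected mice. None was called in DEX + TE against DEX, 0 of 31 by limma and 0 by Rank Product, where limma called 0.0137% of probe sets. Ube2j1 differed from DEX by 0.08 on the log2 scale (95% interval -0.21 to 0.36), Ube2g2 by 0.01 (-0.20 to 0.22) and Ube2h by -0.14 (-0.37 to 0.08). Over the alternatives run on this Ube2h probe set, the value ran from -0.40, with each array centred on its own median, to -0.095. The 4 tested probe sets of Ube2h spanned -0.27 to 0.12, with 2 above 0 and 2 below. Ube2e2 was 1.22-fold the DEX level, with all 3 arrays above those of DEX (log2 0.28, interval 0.07 to 0.50, limma adjusted p = 0.556). Ube2t was at 0.744 of the DEX level, with all 3 arrays below (log2 -0.43, interval -0.79 to -0.07, limma adjusted p = 0.589).

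Groups did not overlap for Ube2v1 and Ube2s either, nor for Ube2l6 and Ube2ql1, whose DEX arrays were all below the floor. Ube2v1 read 4539, 5685 and 4735 in DEX and 4480, 4344 and 4040 in DEX + TE, for a log2 fold change of -0.21 (interval -0.48 to 0.05). The second probe set of Ube2v1 gave -0.01, with overlapping groups. Ube2s was also lower on all 3 DEX + TE arrays, by a log2 value of -0.08 (interval -0.29 to 0.13). Ube2d2a, at 6855, 8334 and 7778 in DEX and 7708, 9764 and 9653 in DEX + TE, overlapped and gave 0.24 (interval -0.11 to 0.58). The 5 tested probe sets of Ube2d2a spanned -0.04 to 2.04, the highest from signals around the floor. Ube2w and Ube2n, also overlapping, gave 0.24 and 0.18, and their second probe sets gave -0.17 and 0.01. Ube2b and Ube2d3 gave 0.03 and 0.00.

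By unadjusted limma p under 0.05, Ube2e2 and Ube2ql1 were higher in DEX + TE than in DEX, 2 of 31 where 6.2% of all probe sets were, and Ube2t was lower, 1 of 31 where 1.56% were. Groups did not overlap for 6 of 31 members against 14.8% of probe sets. Ube2ql1 entered the tests only through DEX + TE, and Ube2l6 through control and DEX + TE, so the filter fixed their direction here and nothing is read from their place in these counts. The median log2 fold change was 0.00 over the members and 0.04 over all genes tested. For 26 of 31 members the 95% interval lay within 0.6 of 0, against 39.8% of probe sets. Centring each array on its own median shifts every gene of a comparison by the same amount and moved the median of all probe sets here from 0.05 to -0.20. With it 13 of 31 members, Ube2j1 and Ube2g2 among them, had a value of the opposite sign.

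In DEX + TE against control, which shares its control arrays with the first comparison, 0 of 31 members were called by limma and 0 by Rank Product, where limma called 0.379% of probe sets. Ube2j1 stood at 1.53-fold (log2 0.61, 95% interval 0.33 to 0.90, limma adjusted p = 0.108), past the fold threshold but not that of the p. With a mean-variance trend in the limma fit its adjusted p was 0.0125, and it was then the 1 member called, of 31, where 1.4% of all probe sets were called. The second probe set of Ube2j1 gave 0.14 in the main fit. Its groups overlapped, at 713, 796 and 651 in control and 727, 800 and 858 in DEX + TE. Ube2h was at 0.40 (interval 0.17 to 0.62, limma adjusted p = 0.154) and Ube2g2 at 0.35 (interval 0.14 to 0.56, limma adjusted p = 0.177). Ube2t was at 0.614 of control, the lowest of the members above the floor (log2 -0.70, interval -1.06 to -0.34, limma adjusted p = 0.130). By unadjusted limma p under 0.05, those 3 were higher, where 7.95% of probe sets were, and Ube2t was lower, where 5.84% were. Groups did not overlap for 9 of 31 members against 22.7% of probe sets, and 24 of 31 intervals lay within 0.6 of 0 against 35.3%. The median was 0.04 over the members and 0.02 over all genes tested, and with arrays centred on their medians it was -0.11 over the members and -0.10 over all probe sets.

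The third contrast set all 6 DEX-injected mice against the 3 controls. It uses the same arrays again. None of the 31 members was called by limma, where 0.929% of probe sets were. Ube2h was at 1.38-fold (log2 0.47, 95% interval 0.28 to 0.66, limma adjusted p = 0.0543), Ube2j1 at 1.49-fold (log2 0.57, interval 0.32 to 0.82, limma adjusted p = 0.0627) and Ube2g2 at 1.27-fold (log2 0.34, interval 0.16 to 0.53, limma adjusted p = 0.0968). All 3 missed both the fold threshold and that of the p. Their tested probe sets spanned -0.05 to 0.47 for Ube2h, 0.14 to 0.57 for Ube2j1 and 0.34 to 0.47 for Ube2g2. Ube2t was at 0.712 of control (log2 -0.49, limma adjusted p = 0.146) and Ube2e2 at 0.830 (log2 -0.27, limma adjusted p = 0.174). At an unadjusted limma p under 0.05, 4 of 31 were higher, with Ube2f as the fourth, where 7.98% of probe sets were, and these 2 were lower, where 7.83% were.

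Groups did not overlap in this contrast for 8 of 31 members, Ube2f, Ube2g2, Ube2h, Ube2j1 and Ube2j2 on the higher side and Ube2e2, Ube2g1 and Ube2t on the lower, against 10.9% of probe sets. The median was 0.03 over the members and -0.01 over all genes tested, and 24 of 31 intervals lay within 0.6 of 0, against 41.7% of probe sets.

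**Figure D3:**
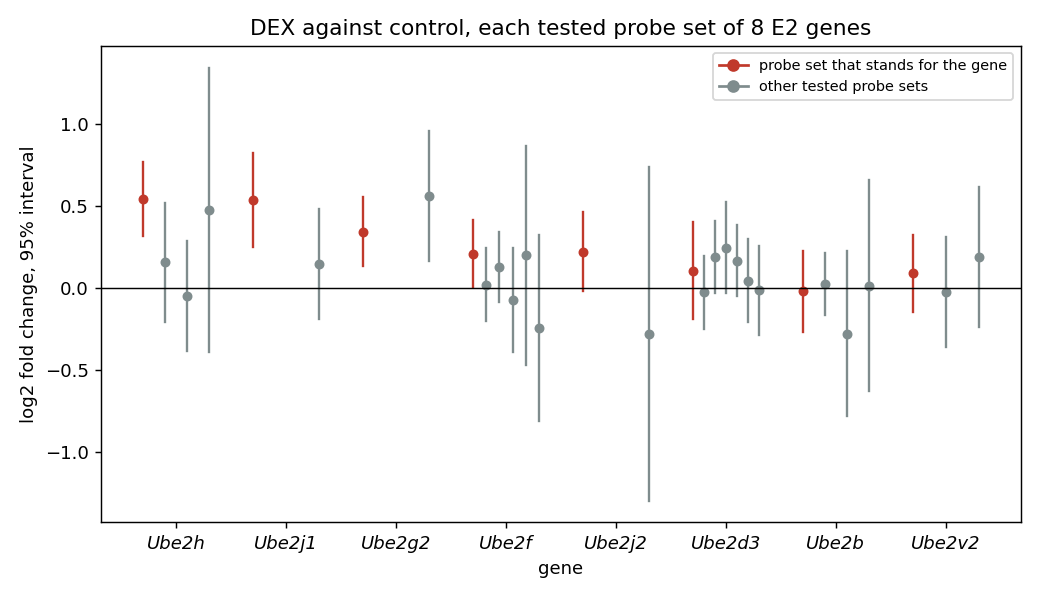
Log2 fold change of DEX against control with its 95% interval (vertical axis) for every tested probe set of 8 E2 genes. Red marks the probe set that stands for the gene and grey the others, and both Ube2g2 probe sets lie above 0 while those of Ube2h span -0.05 to 0.54 and those of Ube2f -0.25 to 0.21.

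Several genes had more than 1 tested probe set, which target different stretches of a transcript. Of 21 such genes, 14 had probe sets on both sides of 0 in DEX against control and 12 in DEX + TE against DEX. In DEX against control the paired probe sets of Ube2a (0.14 and 0.15), Ube2v1 (0.11 and 0.11) and Ube2z (0.05 and 0.06) were nearly equal. Those of Ube2h differed by 0.59 on the log2 scale between lowest and highest, more than the difference between groups in any of them. The tested probe sets of Ube2d2a differed most, from -1.85 to 0.07, where the lowest read 39.8, 51.5 and 41.6 in control and 3.80, 49.5 and 9.72 in DEX, around the floor.

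The rest of the conjugation pathway was read from 4 lists of genes. Of 9 E1 enzymes 6 were tested and 0 were called in either comparison, with medians of -0.02 in DEX against control and 0.00 in DEX + TE against DEX. Uba6 was at -0.27 in DEX (limma adjusted p = 0.291) and Uba3, the E1 of NEDD8, at -0.13. Of 12 genes for ubiquitin and ubiquitin-like proteins 5 were tested, with a median of -0.11 in DEX and 0 called. Urm1, a modifier that also serves in tRNA thiolation, was the farthest, at 299, 349 and 365 in control, 232, 188 and 242 in DEX and 255, 300 and 291 in DEX + TE (log2 -0.62 in DEX, limma adjusted p = 0.119). All 7 E2s with other symbols were tested and 0 were called, with a median of -0.11. Atg10, an E2 of autophagy, and Aktip, which resembles E2s but lacks the active cysteine, were at -0.45 each (limma adjusted p = 0.337 and 0.180).

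Of 24 E3 ligases and ligase subunits that work with these E2s, 22 were tested and 0 were called, with medians of 0.07 in DEX against control and -0.02 in DEX + TE against DEX. Fbxo32 read 18003, 12063 and 10690 in control, 19778, 20847 and 22668 in DEX and 14791, 13998 and 16880 in DEX + TE. Trim63 read 14359, 15438 and 14224 in control, 20654, 19050 and 19083 in DEX and 11745, 10571 and 13731 in DEX + TE. In both ligase genes DEX lay above the other groups on every array, with log2 fold changes of 0.67 and 0.42 in DEX against control (limma adjusted p = 0.193 and 0.183) and -0.47 and -0.71 in DEX + TE against DEX (limma adjusted p = 0.636 and 0.218). The study, with Rank Product and its own processing, listed Fbxo32 as changed in both comparisons. Its RT-PCR, in more mice, had Fbxo32 raised by DEX and lowered again with TE, and Trim63 lower with TE than in DEX. Of the 31 E2 genes tested, 0 had all DEX arrays above the 6 others, where 1.79% of probe sets did. Ube2e2 had them all below, as 2.73% of probe sets did, and so did Ube2l6, whose DEX arrays were under the floor.

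**Figure D4:**
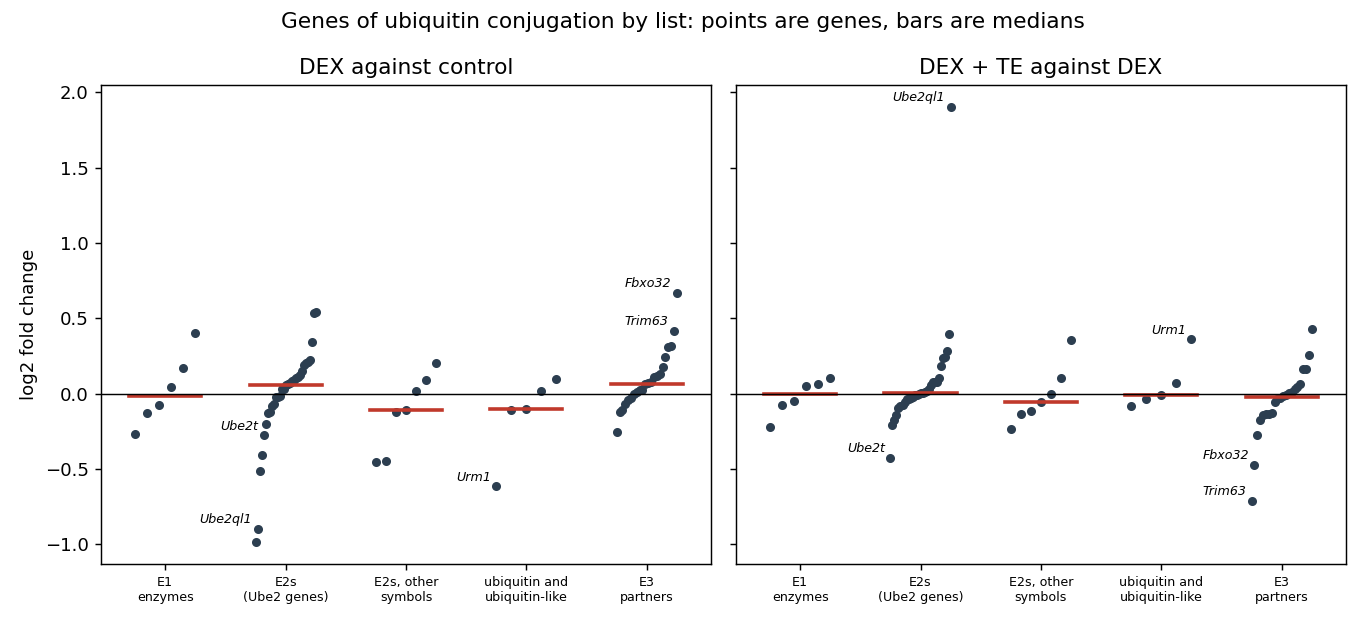
Log2 fold change (vertical axis) of the tested genes of 5 lists of ubiquitin conjugation, in DEX against control on the left and DEX + TE against DEX on the right. Points are genes and red bars are list medians, which lie between -0.11 and 0.07 in both panels, and Fbxo32 and Trim63 lie farther from 0 than their list median.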

How the data were processed

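RNA of each mouse (250 ng) was hybridised to 1 of 9 Affymetrix GeneChip arrays, and the authors deposited an intensity for every probe set. The deposited intensities are linear and share a trimmed mean of 500 (2% left off each end). They are thus not the output of Robust Multi-array Average, named in the methods of the study, with the program not given in the sources used here. A scaling to 1 mean sets no equal medians, which can move small differences. Of 45101 probe sets, 64 controls were left out. Of the others, 34945 had 1 symbol, 932 several and 9160 none.

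Log2 was taken without an offset, and 29269 probe sets remained after those whose mean log2 value was below log2 of 50 in all groups were dropped. All 9 arrays entered a fit of 3 group means with limma 3.58.1 (R 4.3.3), with Benjamini-Hochberg adjustment and the thresholds of the methods, an adjusted p of 0.05 and a log2 fold change of 0.6. Rank Product with 100 permutations within arrays was run in Python 3.11.15 with numpy 2.4.6, and exact permutation tests with scipy 1.17.1 are two-sided. The fits were tested on simulated data. With 3 arrays in a group precision is limited. The limma p-values weigh a difference against the spread between arrays, drawn toward a value shared over all probe sets. As the mice were chosen for weights close to the average, this spread may be less than among unchosen mice.

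Genes with values given are the 6 with the largest difference each way in each comparison, E2s studied in muscle wasting, E2s of ubiquitin-like proteins and up to 4 genes of each further list. The other members named were chosen after their values were seen, among them those whose groups did not overlap. The members and lists were chosen with earlier results of these data known. All members matched RefSeq (GRCm38.p6) by gene number, and 27 of 33 had a promoter there. Protein sequences were not used here. The alternatives tried were no filter, a floor of 100, an offset of 16, median centring, quantile normalization, a mean-variance trend, only the arrays compared, a replicate block, Rank Product, other probe sets of a gene and leaving out each array.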

Additional observations from a re-analysis of the deposited data

How the results depend on the processing

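The count of E2 genes called stayed at 0 in every comparison under every alternative that was run, leaving out each array included (0 to 0), except with a mean-variance trend in DEX + TE against control, where it was 1 (Ube2j1, log2 0.61, limma adjusted p = 0.0125). By adjusted p alone, without the fold threshold, the trend passed Ube2g2, Ube2h and Ube2j1 (3 genes) in DEX against control, in DEX + TE against control and with both DEX groups against control, of 31 tested, where it passed 3.87, 2.57 and 4.77% of all probe sets. A floor of 100 passed Ube2h (1 of 28 genes) in DEX against control, with 1.97% of 21427 probe sets, and the same 3 genes with both DEX groups, with 3.28%. The median log2 fold change of the E2 genes moved to 0.16, -0.25 and -0.11 with arrays centred on their medians, for DEX against control, DEX + TE against DEX and DEX + TE against control, while the median of all probe sets moved from -0.03 to 0.08, from 0.05 to -0.20 and from 0.05 to -0.10. That centring gave the opposite sign to 5, 13, 12 and 4 of 31 members in the 4 comparisons, and quantile normalization to 1, 6, 2 and 1, all of them uncalled. With the mean over all probe sets of a gene the median was 0.0078 in DEX against control and -0.011 in DEX + TE against control. Without 1 array the medians ranged from 3.6e-05 to 0.064, from -0.01 to 0.01, from 0.01 to 0.07 and from 0.01 to 0.06, and the lowest in DEX against control came without DEX replicate 2. Other probe sets reversed Ube2h at -0.051 (DEX against control), -0.042 (DEX + TE against control) and -0.047 (both DEX groups), and Ube2f at -0.075 and -0.25 (DEX against control) and -0.22 (both DEX groups).

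As only a small share of all probe sets was called, few of the 31 members would be expected among them. The steady count of E2 genes thus says little about stability. The number of probe sets called over the whole table, against which the members were read, moved with the settings. For DEX against control it was 147, and 53 with no filter, 341 with a floor of 100, 563 with a trend, 29 with only the arrays compared, 58 by Rank Product and 51 to 101 without 1 array. For DEX + TE against DEX it was 4, and 0 with no filter, 0 with a floor of 100, 8 with an offset of 16, 0 with only the arrays compared, 34 by Rank Product and 0 to 3 without 1 array. For DEX + TE against control it was 111, and 44, 222, 409 and 69 under the same 4 settings as for DEX, and 31 to 87 without 1 array. For both DEX groups it was 272, and 64, 441 and 569 under the first 3 of these, 164 with median centring and 74 to 211 without 1 array. The Rank Product count over the whole table was added after seeing the data. Median centring also moved the split of calls, from 68 higher and 79 lower to 65 and 45 in DEX against control and from 65 and 46 to 48 and 60 in DEX + TE against control, and quantile normalization gave 57 and 57 in the latter. Why these counts moved was not tested.

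The replicate numbers of the labels gave no pairing, since the correlations between same-numbered arrays were -0.02 to 0.05. With the replicate block, 0 E2 genes were called in each comparison, and the whole table gave 41, 0, 30 and 42 calls. Only the arrays compared is no separate setting for both DEX groups, which use all 9, and Rank Product was not run there.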
